A study of Mus musculus with 6 samples.

Results

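The gamma crystallin genes of the mouse, Cryga, Crygb, Crygc, Crygd, Cryge, Crygf, Crygs and Crygn, were followed in retinal RNA by every probe set annotated to any of them. Of these 8 genes 7 were represented, by 8 of the 45037 non-control probe sets of the array. Of the 8 probe sets, 6 carried 1 gene symbol. Of the other 2, 1 was shared by Crygc and Crygb and 1 by the neighbouring gene D630023F18Rik and Cryga. No probe set carried the name Cryge, and Crygc was represented by the shared probe set alone. The genes were selected on the array signals in labelled knockout against wildtype within each scaling batch, so their signals and differences are given as a description, with no test.

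The samples were total RNA of retina at postnatal day 21 on 6 Affymetrix short-oligonucleotide arrays, each from 2 pooled retinas, of mixed sex. Of these, 3 were labelled knockout (ERRβ -/-, of a C57Bl/6 x Sv129 background) and 3 wildtype (C57Bl/6). ERRβ is an orphan nuclear receptor encoded by Esrrb, and the design asks how retinal expression differs when it is deleted. Genotype and strain background differ together between the groups and cannot be told apart.

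Gamma crystallins are small, densely packing structural proteins of the vertebrate eye lens, built of paired Greek key domains, and they give the fibre cells at the core of the lens their high refractive index. The genes for gamma A to F lie in a cluster of close paralogs and are transcribed mainly as lens fibres differentiate, under transcription factors of the MAF, SOX and PROX families. Gamma S is the member most used in the cortex of the older lens, and gamma N combines features of gamma and beta crystallins. The neural retina is not a known main site of gamma A to F, although low levels of crystallin RNA, including gamma S, have been described there.

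In the GRCm38.p6 gene table Cryge, Crygd, Crygc, Crygb and Cryga follow each other on chromosome 1 with no protein-coding gene between them, and Crygf lies on the same chromosome behind 4 further protein-coding genes. Crygs lies on chromosome 16 and Crygn on chromosome 5. All 8 genes had an entry among the RefSeq promoter windows of that build. The 150 bases before the annotated start are shown for the 6 genes that have a probe set of their own, because each of these probe sets read higher in labelled knockout than in wildtype within both batches. Each is written on the gene's strand with 6 searched motifs in capitals.
Crygb, chr1:65082291-65082440, minus strand: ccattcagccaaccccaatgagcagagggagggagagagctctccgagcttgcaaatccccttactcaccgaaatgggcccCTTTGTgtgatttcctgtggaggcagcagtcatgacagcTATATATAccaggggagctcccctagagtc
Crygd, chr1:65063441-65063590, minus strand: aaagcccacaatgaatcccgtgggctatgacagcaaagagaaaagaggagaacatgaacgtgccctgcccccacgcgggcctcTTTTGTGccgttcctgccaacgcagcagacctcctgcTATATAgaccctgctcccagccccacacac
Crygf, chr1:65926372-65926521, plus strand: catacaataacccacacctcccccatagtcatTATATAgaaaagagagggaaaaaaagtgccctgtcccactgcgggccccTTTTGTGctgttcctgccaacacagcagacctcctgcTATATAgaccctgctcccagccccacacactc
Cryga, chr1:65103364-65103513, minus strand: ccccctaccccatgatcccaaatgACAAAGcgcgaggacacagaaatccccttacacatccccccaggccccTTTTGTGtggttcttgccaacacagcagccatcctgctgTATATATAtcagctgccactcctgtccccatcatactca
Crygs, chr16:22811411-22811560, minus strand: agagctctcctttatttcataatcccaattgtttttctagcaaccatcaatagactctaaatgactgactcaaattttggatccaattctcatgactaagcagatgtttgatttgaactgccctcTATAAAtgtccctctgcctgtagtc
Crygn, chr5:24757849-24757998, minus strand: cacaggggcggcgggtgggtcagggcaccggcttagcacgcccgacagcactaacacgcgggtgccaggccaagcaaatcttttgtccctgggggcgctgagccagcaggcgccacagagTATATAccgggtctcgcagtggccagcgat

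The motifs were searched on both strands of the 250 bases before the start. The first was the classical box of core promoters, spelled TATAAA. A variant of it, called TATA-like here, was spelled TATATA, and a heptamer was spelled TTTTGTG. The others were the core of a MAF motif, spelled TGCTGA, a SOX type site, spelled ACAAAG, and the core that receptors of the ERR type bind, spelled AAGGTCA. The TATA-like box and the heptamer were added after the sequences had been seen, so their counts among the members are a description only. TATATA lay before 7 of the 8 genes, Crygs excepted, and in 5.25% of all 32851 windows. In Cryga and Crygb it occurred as overlapping copies within a longer run. TTTTGTG lay before Cryga, Crygc, Crygd, Cryge and Crygf, and in 4.42% of all windows, and it stood 49 to 78 bases before the start in these genes. In Crygb the same stretch of the window read CTTTGT, which is the SOX type motif on the other strand. That motif lay before Cryga and Crygb and in 16.5% of all windows. TGCTGA lay before Cryga, Crygc, Crygs and Crygn (16.1% of all windows), outside the bases shown. TATAAA lay before Crygs alone (12.4% of all windows), and AAGGTCA before Cryga alone (4.08% of all windows), 225 to 231 bases from the start.

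**Figure D1:**
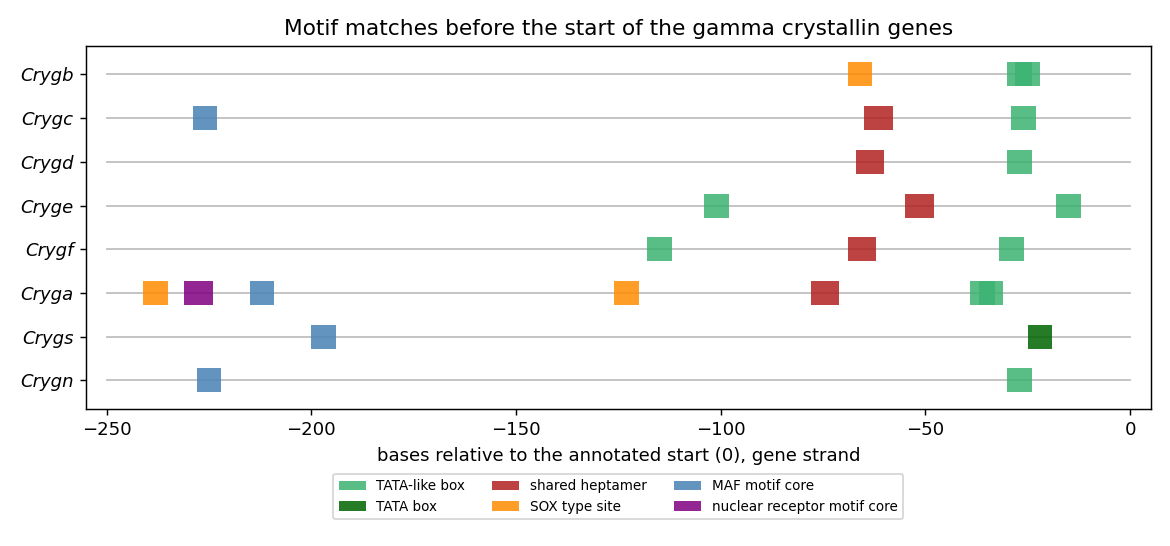
Matches of 6 short motifs in the 250 bases before the annotated start of each gamma crystallin gene, with the distance from the start in bases on the horizontal axis and a row per gene. The TATA-like box stands before every gene except Crygs, and the shared heptamer (TTTTGTG) stands before Cryga, Crygc, Crygd, Cryge and Crygf.

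Alignment of the 150-base windows placed Cryge and Crygf closest, with 78.7% identical columns. Crygd and Crygf shared 76.4% and Crygd and Cryge 69.5%, with an unbroken identical run of 56 bases in the last pair. The 15 pairs among Cryga to Crygf ran from 50.0% to 78.7%, and the 13 pairs with Crygs or Crygn from 44.6% to 52.4%. These windows lie before the start, and no transcript or probe sequences were compared, so the percentages do not measure likeness of the transcripts. Transcripts of close paralogs can bind each other's probes. A probe set named for a single gamma A to F gene may thus hold RNA of another. This applies to Crygf in particular, whose only probe set is of the type that the array design marks as able to cross-hybridise.

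The deposited signals are intensities on a linear scale. Replicates 1 and 2 of both groups had been scaled to a trimmed mean of 500 and replicate 3 of both groups to 150, and log2 signals correlated at 0.953 to 0.978 within these scaling batches and at 0.799 to 0.864 between them. Values are therefore compared within a batch, as 2 against 2 arrays and as 1 against 1. Median signals near 500 were 114 to 118 in labelled knockout and 130 to 135 in wildtype arrays, and near 150 they were 61.5 in labelled knockout and 57.3 in wildtype. No detection calls are used, so a signal under the array median is read as a low signal and nothing more. The brightest Esrrb probe set read 3435, 4012 and 2397 in the labelled knockout and 2951, 2934 and 1771 in the wildtype arrays, replicates 1 to 3, and so was no lower under the knockout label. The sources used here do not say whether the Esrrb probes lie in the deleted part, and so they cannot serve as a check of the knockout. Actb, whose 3′ over 5′ signal reflects RNA integrity, had a ratio of 1.66 to 1.82 in labelled knockout and 1.83 to 2.32 in wildtype arrays. The same ratio for Gapdh overlapped between the groups, with 0.719 to 0.731 in labelled knockout and 0.712 to 0.779 in wildtype arrays. The part of RNA integrity in the differences below was not tested.

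Gamma crystallin signals were higher in the arrays labelled knockout. In 7 of the 8 probe sets every labelled knockout array lay above every wildtype array of its batch, and the same held for 12.8% of all 45037 probe sets. The same 7 had a mean difference of at least 4-fold, which 0.608% of all probe sets reached. The median log2 difference of the 8 probe sets was 4.46, and that of all probe sets was -0.04. Taken separately, the median of the 8 was 5.19 near 500 and 2.54 near 150. The difference was larger near 150 in 5 of the 8 and smaller in 3. These counts rest on the comparison that chose the genes and support nothing beyond their description. The retinas were bulk samples, so a different number of cells of a type and a different amount of RNA per cell cannot be told apart.

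**Figure D2:**
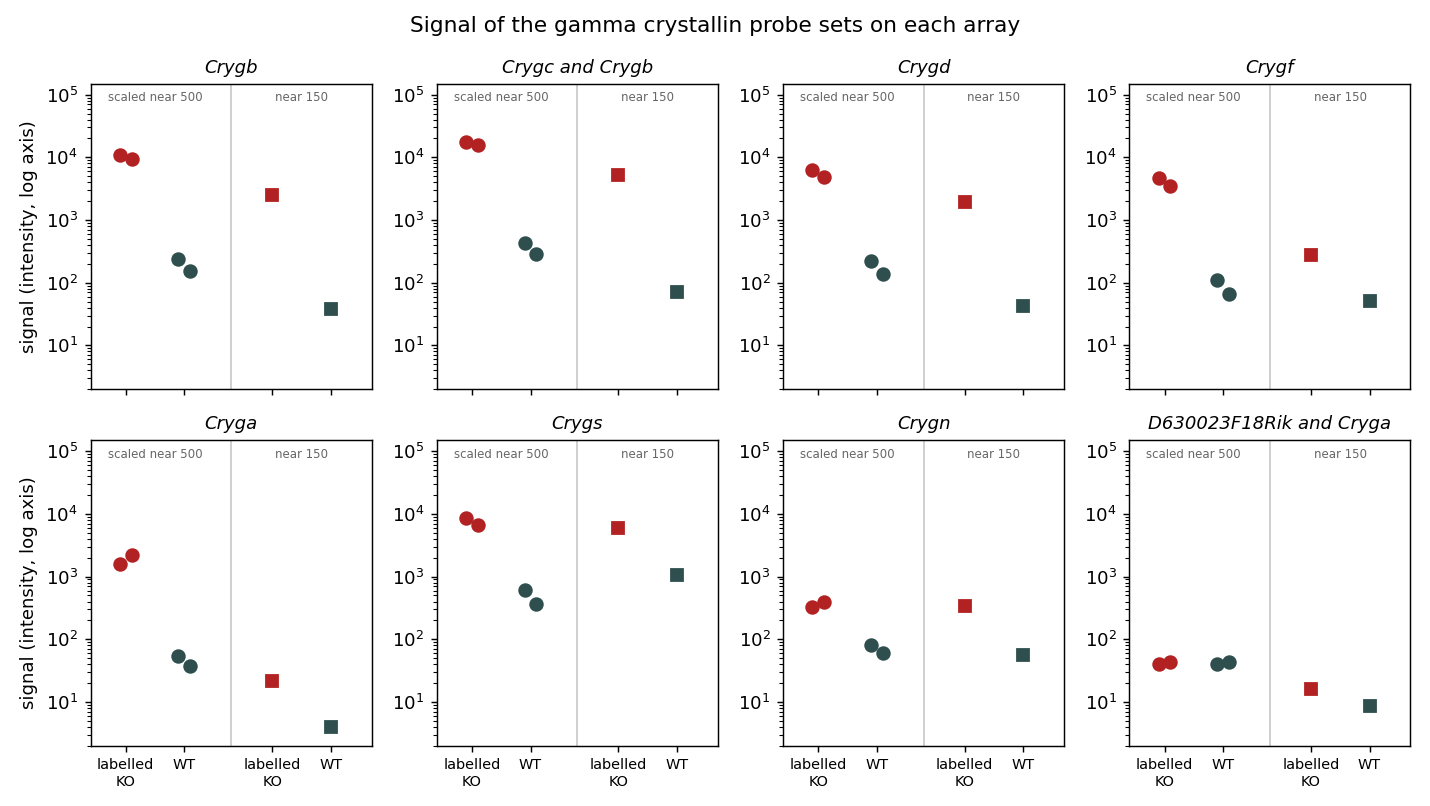
Signal of each gamma crystallin probe set on each array (intensity, log axis), with labelled knockout (KO, red) left of wildtype (WT, dark), circles for the arrays scaled near 500 and squares for those scaled near 150. In 7 of the 8 panels the labelled knockout arrays lie above the wildtype arrays of their batch, and the probe set shared by D630023F18Rik and Cryga reads 40.4 and 42.9 in labelled knockout and 40.3 and 43.4 in wildtype arrays near 500.

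Crygb, which encodes gamma B crystallin, read 10803 and 9279 in the labelled knockout and 238.9 and 151.7 in the wildtype arrays scaled near 500. In the arrays scaled near 150 it read 2526 in labelled knockout and 38.2 in wildtype. The groups did not overlap in either batch, and the difference was 5.72 on the log2 scale near 500 and 6.05 near 150. Over all 6 arrays the log2 fold change was 5.83 ± 0.16 (standard error, SE, n = 3 per group), or 56.8-fold. The wildtype signal stood above 60.1%, 52.8% and 40.6% of the probe sets of its own array in replicates 1, 2 and 3, so it lay near the middle of each array. In the labelled knockout arrays it stood above 99.1%, 98.8% and 99.4%.

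The probe set shared by Crygc and Crygb cannot tell the gamma C and gamma B transcripts apart. It read 17904, 15685 and 5196 in the labelled knockout arrays and 427.7, 292.5 and 70.0 in the wildtype arrays, replicates 1 to 3. The difference was 5.57 near 500 and 6.21 near 150 on the log2 scale. Over all arrays it was 5.78 ± 0.16 (SE), close to the value of the Crygb probe set.

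Crygd encodes gamma D crystallin, in which mutations cause cataract in mouse and human. It read 6312 and 4796 in the labelled knockout and 218.9 and 135.7 in the wildtype arrays scaled near 500, and 1948 in labelled knockout and 42.7 in wildtype near 150. Again no labelled knockout array overlapped a wildtype array of its batch. The difference was 31.9-fold near 500 and 45.6-fold near 150, and 5.17 ± 0.19 (SE) on the log2 scale over all arrays.

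Crygf and Cryga, for gamma F and gamma A crystallin, differed between the groups by more near 500 than near 150. Crygf read 4750 and 3436 in labelled knockout and 110.5 and 65.4 in wildtype arrays scaled near 500, a mean of 4093 ± 929 against 87.9 ± 31.9 (SD, n = 2 each). Near 150 it read 273.8 in labelled knockout and 51.2 in wildtype. Its log2 difference was therefore 5.57 near 500 and 2.42 near 150, with 4.52 ± 0.52 (SE) over all arrays. Cryga read 1594 and 2230 in labelled knockout and 53.2 and 38.0 in wildtype arrays scaled near 500. Near 150 it read 21.3 in labelled knockout and 4.06 in wildtype, each under the median of its own array. The log2 difference of Cryga was 5.39 near 500 and 2.39 near 150, with 4.39 ± 0.54 (SE) over all arrays. With 16 added to every signal, which damps differences between low signals, the value for Cryga was 3.60.

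**Figure D3:**
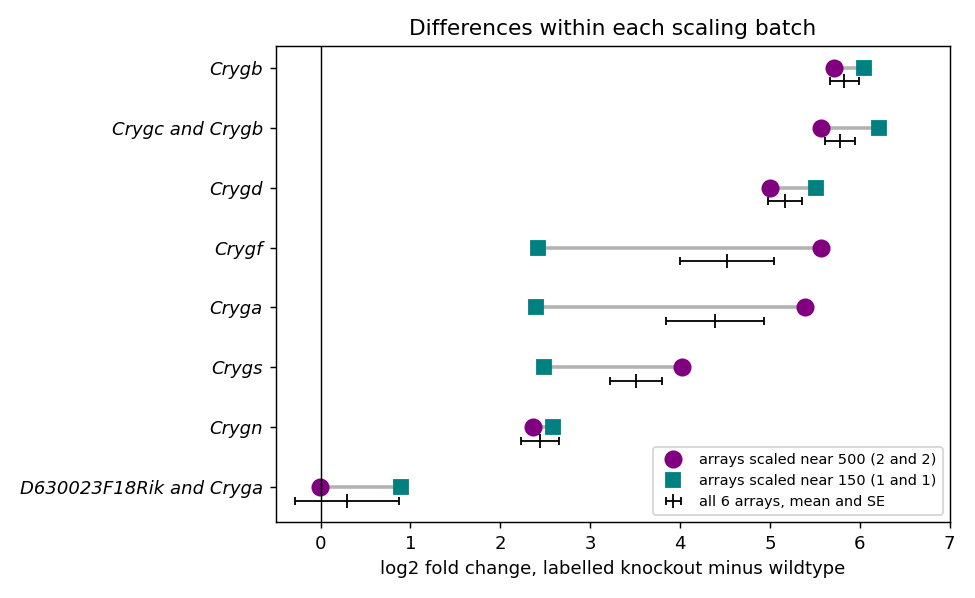
Log2 difference, labelled knockout minus wildtype, of each gamma crystallin probe set in the arrays scaled near 500 (circles, 2 against 2) and near 150 (squares, 1 against 1), with the mean over all 6 arrays and its SE below. Crygf and Cryga lie at 5.57 and 5.39 near 500 and at 2.42 and 2.39 near 150, while Crygb, Crygd and the probe set shared by Crygc and Crygb lie further to the right near 150 than near 500.

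Crygs, for gamma S crystallin, also differed by more near 500 than near 150. It read 8757 and 6765 in the labelled knockout and 606.3 and 371.1 in the wildtype arrays scaled near 500. Near 150 it read 6023 in labelled knockout and 1072 in wildtype. The log2 difference was 4.02 near 500 and 2.49 near 150, with 3.51 ± 0.29 (SE) over all arrays. The wildtype array scaled near 150 thus read higher for Crygs than both wildtype arrays scaled near 500, although its signals are scaled to a lower mean. In it Crygs stood above 96.6% of the probe sets, against 76.1% and 67.9% in wildtype replicates 1 and 2.

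Crygn, for gamma N crystallin, had the smallest difference among the probe sets with 1 symbol near 500 and over all arrays, but not near 150. It read 326.4, 392.0 and 335.5 in the labelled knockout arrays and 79.8, 60.3 and 55.7 in the wildtype arrays, replicates 1 to 3. Its groups did not overlap, and its wildtype signals lay under the median of their arrays. The log2 difference was 2.37 near 500 and 2.59 near 150, with 2.44 ± 0.21 (SE) over all arrays, or 5.43-fold.

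The probe set shared by D630023F18Rik and Cryga had low signals in both groups. It read 40.4, 42.9 and 16.4 in the labelled knockout and 40.3, 43.4 and 8.77 in the wildtype arrays, under the array median in each. The groups overlapped near 500, where the log2 difference was -0.01, and the value near 150 was 0.90. The 2 probe sets of D630023F18Rik alone had log2 differences of -0.06 and 0.24. The signal of this shared probe set therefore follows neither the size nor the direction of the Cryga probe set near 500, and which transcript it measures was not tested.

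Between replicates 1 and 2 most of the probe sets moved the same way in wildtype, and fewer did in labelled knockout. Wildtype replicate 1 read higher than wildtype replicate 2 in 7 of the 8, by 0.40 (Crygn) to 0.76 (Crygf) on the log2 scale. Labelled knockout replicate 1 read higher than replicate 2 in 5 of the 8, by 0.19 (Crygc and Crygb) to 0.47 (Crygf), whereas the difference of replicate 1 minus replicate 2 was -0.48 for Cryga, -0.26 for Crygn and -0.085 for the probe set shared by D630023F18Rik and Cryga. Of 16 other lens genes, regulators left out, wildtype replicate 1 read higher than replicate 2 in 14 and labelled knockout replicate 1 in 15. The share over all probe sets was not computed, so these counts are a description only. The probe sets share each array and its scaling, so these are not independent observations.

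The batches differed in which gamma crystallins stood high. In wildtype retina the position of Crygs within the array was 24.6 percentage points higher near 150 than its mean near 500, and that of Crygn 12.6 points and of Crygf 6.44 points higher. The same difference was -15.8 points for Crygb, -11.5 for Crygd and -18.7 for Cryga. All 8 alpha and beta crystallin genes were higher in position in the wildtype array near 150, by 5.55 to 34.3 points. A single wildtype array stands for that batch, so a difference between retinas and one between array runs cannot be told apart.

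**Figure D4:**
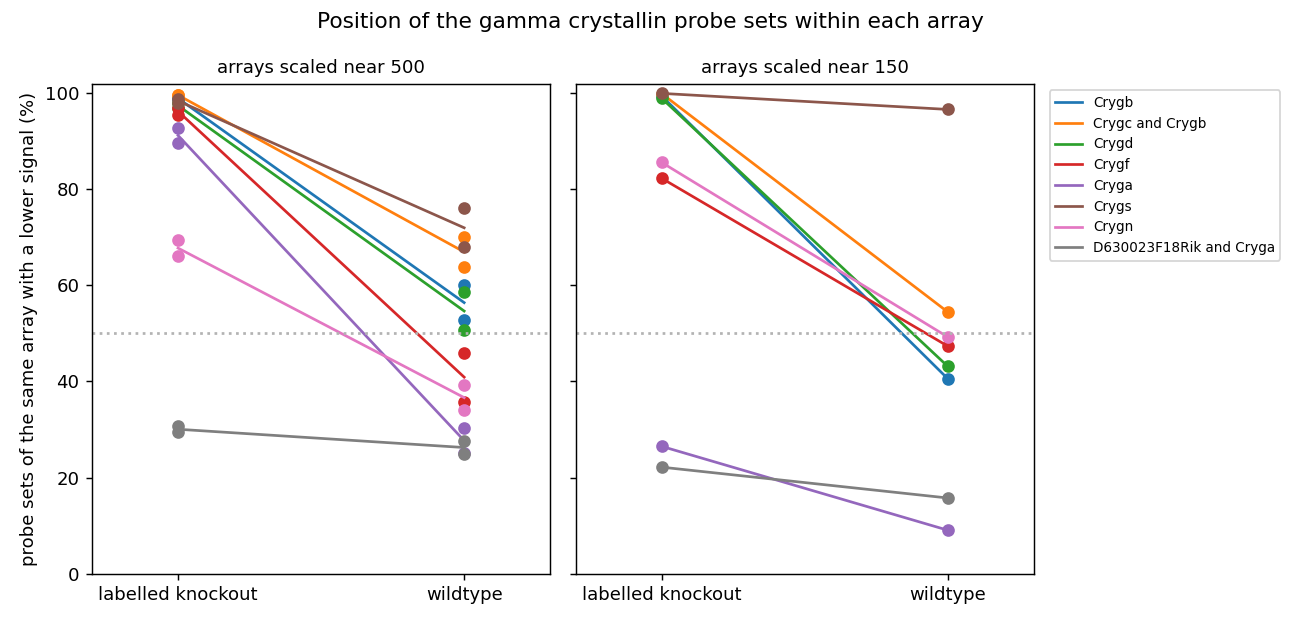
Percentage of probe sets with a lower signal on the same array for each gamma crystallin probe set, labelled knockout left and wildtype right, in the arrays scaled near 500 and near 150; points are arrays, lines join group means and the dotted line marks the array median. Crygs stands at 96.6% in the wildtype array near 150, while Cryga stays below the median in both arrays of that batch.

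Other lens genes were compared by a list of 32 alpha and beta crystallins, lens fibre genes and regulators, of which 28 were on the array and 23 passed the filter on low signal. In limma with the scaling batch as a block, 12 of these 23 rose, none fell and 11 did not pass an adjusted p of 0.05. On wildtype arrays alone 19 of the 23 would pass the filter, and 9 of these 19 rose. Over all 12536 genes tested, 1.28% rose and 1.48% fell. The list was chosen with earlier results of these data known, so its counts and p-values are a description and no independent support. Without the block limma called 0 of the 23, with 12 at an unadjusted p under 0.05. All 8 alpha and beta crystallin genes rose, with a median log2 fold change of 3.32, where the median of all genes tested was 0.02. Crybb1, for beta B1 crystallin, rose by 4.13 ± 0.20 (adjusted p = 1.16e-05 in limma). Cryba4, for beta A4 crystallin, rose by 3.85 ± 0.19 (adjusted p = 1.39e-05 in limma). Cryab, for alpha B crystallin, a small heat shock protein also made outside the lens, rose least of the 8, by 1.46 ± 0.074 (adjusted p = 1.56e-05 in limma). Gamma crystallin differences spanned 2.44 to 5.83 over the 6 probe sets with 1 symbol, and those of the 8 alpha and beta crystallins 1.46 to 4.13.

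Of 6 lens fibre genes tested, 4 rose (Mip, Lim2, Bfsp1 and Grifin). Of these 4, only Lim2 would pass the filter on wildtype arrays alone. Mip, Bfsp1 and Grifin were tested because of their signal in the labelled knockout arrays, so the count is no independent support. All 8 alpha and beta crystallin genes would pass it on wildtype arrays alone. Bfsp1, for the beaded filament protein filensin, read 420, 338 and 194 in labelled knockout and 40.7, 28.6 and 6.00 in wildtype arrays, a log2 fold change of 3.98 ± 0.38 (adjusted p = 0.00112 in limma). Bfsp2, for its filament partner phakinin, had 0.91 ± 0.32 and did not pass (adjusted p = 0.152 in limma). The fibre cell nuclease gene Dnase2b was under the filter and had a difference of 1.16, with overlapping groups near 500.

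Of the regulators of lens and crystallin genes, limma called 0 of 9 tested, with 3 at an unadjusted p under 0.05. Over all genes tested limma called 2.75% in either direction and 21.3% had an unadjusted p under 0.05. A count of 0 among 9 is near that background and does not show that the regulators are unchanged. Maf, whose product binds crystallin promoters in lens fibres, read 659, 809 and 559 in labelled knockout and 635, 670 and 387 in wildtype arrays, and its groups overlapped near 500. Its log2 fold change was 0.29 (adjusted p = 0.235 in limma). Prox1, a homeodomain factor of lens fibres and of horizontal and amacrine cells, had -0.33 (adjusted p = 0.185), and Mafg, a small MAF factor, had -0.59 (adjusted p = 0.0563). Without labelled knockout replicate 3 both passed as lower in limma, Mafg with -0.75 (adjusted p = 0.00397) and Prox1 with -0.49 (adjusted p = 0.0204). Without wildtype replicate 3 the adjusted p in limma was 0.00443 for Mafg and 0.0209 for Prox1. With either replicate 3 left out, the block absorbs the array that remains near 150. Both settings thus give the same log2 difference, that of the arrays near 500, and are not separate results. Hsf4, a heat shock factor of the lens, had 0.47 (adjusted p = 0.416), and Sox2, a partner of PAX6 that is also made in retinal glia, had 0.17 (adjusted p = 0.4). Pax6 had -0.07, Six3 -0.16, Tdrd7 0.03 and Caprin2 -0.01, with adjusted p from 0.28 to 0.986. Pitx3, Foxe3 and Sox1 were under the filter, with low signals. Pitx3 had log2 differences of 0.29 near 500 and 1.26 near 150. Those of Foxe3 were -0.41 near 500 and 3.34 near 150, and those of Sox1 were -1.11 near 500 and 1.96 near 150, so the batches disagreed in sign for both. Several of these factors are also expressed by cells of the retina itself.

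**Figure D5:**
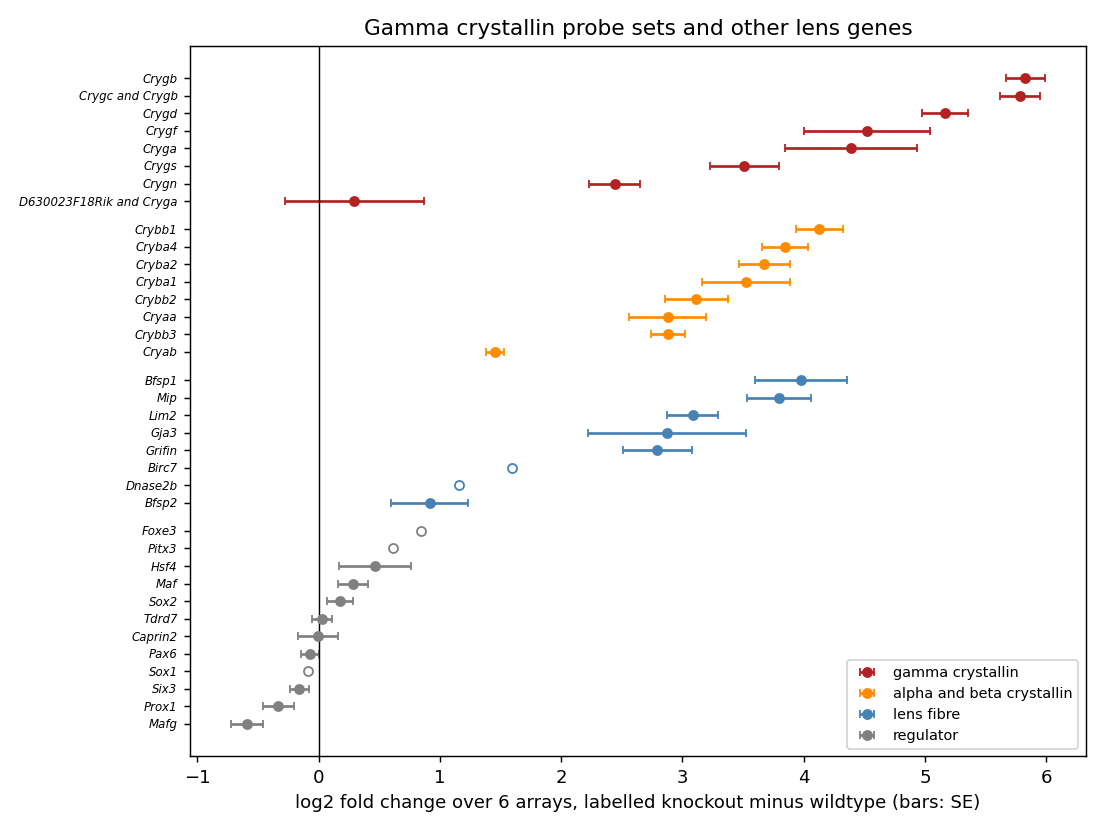
Log2 fold change over the 6 arrays, labelled knockout minus wildtype, for the gamma crystallin probe sets and for other lens genes by class; bars are the SE and open circles are companion genes under the filter on low signal. All alpha and beta crystallins lie between 1.46 and 4.13, and the regulators, open circles included, lie between -0.59 and 0.84.

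Genes were also ranked by likeness to the pattern of gamma A to F. Likeness was the root mean square difference, over the 6 arrays, between a gene's log2 signal with each batch mean subtracted and the mean of the same profile over the 6 probe sets annotated to Cryga to Crygf. The 5 nearest among 23282 probe sets with 1 symbol were those of Crybb1 (0.284), Cryba4 (0.317), Mip, the lens fibre water channel (0.337), Cryba2 (0.377) and Bfsp1 (0.544), where the median of all was 2.18. All of them are on the list of other lens genes, which was chosen with earlier results of these data known. Mip and Bfsp1 would not pass the filter on wildtype arrays alone, so they could be ranked only through their signal in labelled knockout. With batch means subtracted, the profile is mostly the difference between labelled knockout and wildtype on which the gamma crystallins were chosen, so nearness mostly means a difference of like size and is a description only. The profile's own probe sets lay further from it than the 4 nearest genes, Crygd at 0.507, Cryga at 0.586, Crygf at 0.616, Crygb at 0.783, the one shared by Crygc and Crygb at 0.785 and the one shared by D630023F18Rik and Cryga at 2.06. The last has low signals in both groups and enters the mean profile, where its log2 difference of 0.30 lowers the mean difference. The distances and their order depend in part on this, and the ranking without that probe set was not computed. Crygs, outside the chromosome 1 group, lay at 0.472 and Crygn at 0.972.

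Genes beside the chromosome 1 gamma crystallins were compared in the same fit. Of the 14 protein-coding genes within 5 places of a member on that chromosome, a set chosen after the data were seen, 12 were tested and limma called 0, with 6 at an unadjusted p under 0.05. Over all genes tested limma called 2.75% in either direction and 21.3% had an unadjusted p under 0.05, so a count of 0 among 12 is near that background. The log2 fold changes of the 12 ran from -0.41 to 0.48, with a median of 0.06. The other 2 were under the filter, Akr1cl with -0.79 and Pth2r with 0.17.

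Markers of other tissues of the eye were read on the same arrays, as sums of their signals. The 6 lens fibre markers on the array summed to 1939 and 1607 in labelled knockout and 314.1 and 197.6 in wildtype arrays scaled near 500, and to 3420 in labelled knockout and 444.0 in wildtype near 150. Within each batch the lens fibre marker sum was thus higher in labelled knockout, the direction of most gamma crystallin probe sets. This does not say that both followed each other from array to array. The 4 that rose are those given above. On the lens epithelium list 1 of 3 tested rose, Cryaa, which fibres also make, and Foxe3, Pitx3 and Cdh1 lay under the array median on every array. Its sum over 6 markers was 16350 and 16587 in labelled knockout and 9701 and 9589 in wildtype arrays near 500, and 8543 in labelled knockout and 3966 in wildtype near 150. Most of that difference is Cryaa, already counted among the alpha crystallins. Cryaa read 6805 and 5966 in labelled knockout and 549 and 542 in wildtype arrays near 500. Near 150 it read 6250 in labelled knockout and 2138 in wildtype.

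Among pigment epithelium and melanocyte markers 4 of 8 tested rose, namely Tyrp1, Dct, Pmel and Mlana, and none fell. The others on the list, Rpe65, Ttr, Best1, Tyr and Slc45a2, were not called or not tested. The 9 markers of that list summed to 35906 and 42384 in labelled knockout and 31252 and 31647 in wildtype arrays near 500, and to 1639 in labelled knockout and 923.2 in wildtype near 150. On the cornea list 1 of 3 tested rose, the matrix proteoglycan gene Dcn, and the corneal keratin gene Krt12, Krt14 and Aldh3a1 lay under the median on every array. Its 6 markers summed to 979.9 and 900.8 in labelled knockout and 580.1 and 390.9 in wildtype arrays near 500, and to 189.3 in labelled knockout and 120.8 in wildtype near 150. On the ciliary body and iris list 1 of 6 tested rose, the smooth muscle actin gene Acta2, and Des lay under the median on every array. Its 6 markers summed to 6081 and 6622 in labelled knockout and 4756 and 4251 in wildtype arrays near 500, and to 1320 in labelled knockout and 799.1 in wildtype near 150. Each of these sums was higher in labelled knockout within its batch, and the part of these tissues in the gamma crystallin differences was not tested. The marker genes named as having risen were picked out after their values were seen. Over all genes tested 1.28% rose.

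Markers of the retina itself were read in the same way. The 5 rod markers on the array summed to 150600 and 170089 in labelled knockout and 192072 and 188089 in wildtype arrays near 500, and to 25985 in labelled knockout and 26799 in wildtype near 150. Rod marker signal was thus somewhat lower in labelled knockout in both batches. Over the 6 lists of rod, cone, bipolar, Müller glia, amacrine and ganglion cell markers, limma called 0 of 22 tested in either direction, near the 2.75% called over all genes. An unadjusted p under 0.05 was found for 10 of the 22, against 21.3% of all genes.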

How the data were processed

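Retinal RNA of 3 labelled knockout and 3 wildtype samples was hybridised to Affymetrix arrays after 1 round of amplification from an oligo dT primer, per the labels' protocols. Groups and replicate numbers came from the sample titles, and nothing says that samples came from separate litters, so p-values cover only how these samples spread, which may be technical. The values that the authors deposited are intensities on a linear scale, 1 per probe set and array. GCOS 1.4 and MAS5 are named in the submitters' processing notes, with no role stated. Array data carry no read depth, and the number of arrays limits the precision.

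Of 45101 probe sets, 64 controls were left out. Scaling batches were found from array means after trimming 2% at either end. Log2 signals were used as scaled by the authors. Probe sets at or above the 40th percentile of mean log2 signal, a geometric mean of 54.5, were kept for tests (27022). Group differences were fitted in limma 3.58.1 (R 4.3.3; lmFit, then eBayes with trend, two-sided tests), keeping the scaling batch as a block, and p-values were adjusted by Benjamini-Hochberg over the kept probe sets. SEs of the gamma crystallins are from a fit without the filter. Their p-values are not reported, because these genes were chosen on this contrast. Of the 8 gamma crystallin probe sets 7 passed the filter, and 6 would pass it on wildtype arrays alone. The code was tested on simulated data.

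Probe sets were named from a platform annotation table (34945 with 1 symbol, 932 with several, 9160 with none). For a gene with several kept probe sets the brightest on average stood for it. Named genes were all members, the list's regulators, its 3 largest and 3 smallest other changes, and the 5 genes of nearest pattern. Some genes of the lists are not reported here. The members and lists were chosen with earlier results of these data known. Promoter windows are RefSeq's, of GRCm38.p6, and were aligned with Biopython 1.88.

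After the group means were subtracted, samples of the same number correlated at 0.570, 0.670 and 0.843, so the numbers pair the samples by a rule of 0.1 or more in every pair. The crossed pairs of numbers 1 and 2 gave 0.607 and 0.627, so this pairing follows the scaling batch. A fit with a replicate block was an alternative, beside others on normalization, filter, added signal and left-out arrays.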

Additional observations from a re-analysis of the deposited data

How the results depend on the processing

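The median log2 difference of the 8 gamma crystallin probe sets was 4.46, and 2.54 in the arrays scaled near 150 alone, where 3 of the 8 had a smaller difference. It was 5.19 near 500, 3.93 with 16 added to every signal, 4.37 after quantile normalization and 4.55 with arrays centred on their medians, and leaving out each array in turn gave 3.99 to 5.19. The 7 probe sets that read higher in labelled knockout kept that direction in each of these settings. In these 7 every labelled knockout array lay above every wildtype array of its batch. Leaving out arrays, using a batch alone or adding 16 could therefore not change the direction, and its constancy there is no support. The probe set shared by D630023F18Rik and Cryga had 0.30, and -0.0066 in the arrays scaled near 500 and without labelled knockout or wildtype replicate 3; leaving out each array gave -0.0066 to 0.41. The cause was not tested.

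Among the other lens genes, 12 were called, and limma without the block called 0 (12 of 23 at an unadjusted p under 0.05). Leaving out each array gave 12 to 14, and a replicate block gave 12. Over all probe sets 609 were called, 280 higher and 329 lower. Without the block 0 were called (118 at an unadjusted p under 0.05), and with a replicate block 200. The count was 284 with arrays centred on the median (165 higher and 119 lower), 405 without the filter, 955 with the filter at the 60th percentile and 3710 in the arrays scaled near 500 alone. Leaving out each array gave 79 to 3702, with 3702 and 3680 without labelled knockout or wildtype replicate 3 and 79 to 121 without any other. Without either replicate 3 the differences are those of the arrays near 500, so these settings repeat that comparison. With Gja3, a lens connexin gene that missed the threshold (adjusted p = 0.0558 in limma), the list had 13 calls after quantile normalization or with 16 added. Gja3 read 33.6, 4.64 and 52.8 in the wildtype arrays and would not pass the filter on these alone. It was tested because of its signal in the labelled knockout arrays, so its calls are no independent support. Mafg and Prox1 passed as lower near 500 alone, the same comparison as without either replicate 3, and Mafg with the filter at the 60th percentile. Low signals limit Cryga most.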
